A study of Homo sapiens with 4 samples.

Results

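Neutrophils and eosinophils store their antimicrobial and tissue-digesting proteins in granules, and the transcripts of 10 such proteins were followed here in a human leukaemia line before and after it became resistant to imatinib. The 10 genes were taken by name from the 32673 genes of the expression table, and all 10 were found. 5 of them encode proteins of the azurophil granule of neutrophils and monocytes (MPO, ELANE, PRTN3, AZU1 and CTSG), and 5 encode proteins of eosinophils (PRG2, PRG3, RNASE2, RNASE3 and CLC). RNA of imatinib-sensitive TF1-BA cells and of imatinib-resistant TF1-BAR cells was sequenced, with 2 libraries for each line. TF1 is a human erythroleukaemia line that depends on the cytokine GM-CSF. TF1-BA cells are TF1 cells infected with a retrovirus carrying the p210 form of BCR-ABL, the fusion kinase of chronic myeloid leukaemia that imatinib inhibits, and they are sensitive to the drug. TF1-BAR cells were derived from TF1-BA cells by months of continuous imatinib and so carry the same retroviral BCR-ABL. For both lines the labels give a medium with 2 ng/ml GM-CSF and 10000000 cells for each replicate, and imatinib at 2 uM was kept in the culture of the TF1-BAR cells. No source states whether the drug was still present when RNA was extracted, and the study's culture methods give a higher GM-CSF dose than the labels. The TF1-BAR libraries also carry a vector in their titles. Whether these cells held an empty vector is not stated. Each line is a single derived population, and the presence of the drug, the acquired resistance and any vector cannot be told apart. No source states that the 2 libraries of a line were separate cultures, so the p-values measure only the spread between these libraries.

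Azurophil granules are the first granules to appear, at the promyelocyte stage, and their transcripts are switched off before the neutrophil is mature. The serine proteases elastase, proteinase 3 and cathepsin G are made as inactive precursors, trimmed by the dipeptidyl peptidase CTSC, and packed on the proteoglycan serglycin, while azurocidin is a relative of theirs without protease activity. PRTN3, AZU1 and ELANE lie side by side on chromosome 19, whereas CTSG lies beside the granzyme and mast cell chymase genes on chromosome 14. Transcription of these genes in immature granulocytes depends on factors such as PU.1, C/EBP proteins and MYB, and that of eosinophil genes also on GATA1. Cathepsin G is known from mast cells as well, and CLC and PRG2 from basophils.

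The promoters of 4 granule genes are shown because the results below turn on them: CTSG was higher in the resistant cells, PRTN3 and PRG3 were lower, and AZU1 is the close neighbour of PRTN3. Each is the RefSeq window of 250 bases before the start site and 50 bases from it in GRCh38.p14, written 5′ to 3′ on the strand of the gene. Windows were found for 7 of the 10 genes and not for MPO, ELANE and PRG2. Capitals mark matches on either strand to GAGGAAG (PU.1 type), TTGCNNAA (C/EBP type) and either TAACNG or CAACNG (MYB type). The letters AGATAA or alternatively TGATAA, also on either strand, were searched as the GATA type, and no matches overlapped in these windows.
CTSG: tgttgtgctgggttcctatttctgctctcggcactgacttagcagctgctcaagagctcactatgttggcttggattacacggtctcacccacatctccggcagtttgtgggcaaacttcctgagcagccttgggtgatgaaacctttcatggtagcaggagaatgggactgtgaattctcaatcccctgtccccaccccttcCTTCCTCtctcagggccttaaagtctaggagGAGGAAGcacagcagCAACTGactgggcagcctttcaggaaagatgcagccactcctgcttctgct
PRTN3: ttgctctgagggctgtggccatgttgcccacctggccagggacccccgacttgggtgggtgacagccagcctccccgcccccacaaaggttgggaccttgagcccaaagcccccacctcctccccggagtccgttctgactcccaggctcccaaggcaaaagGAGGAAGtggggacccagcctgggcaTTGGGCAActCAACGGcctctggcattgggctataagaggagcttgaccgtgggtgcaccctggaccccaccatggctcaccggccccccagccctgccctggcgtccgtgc
AZU1: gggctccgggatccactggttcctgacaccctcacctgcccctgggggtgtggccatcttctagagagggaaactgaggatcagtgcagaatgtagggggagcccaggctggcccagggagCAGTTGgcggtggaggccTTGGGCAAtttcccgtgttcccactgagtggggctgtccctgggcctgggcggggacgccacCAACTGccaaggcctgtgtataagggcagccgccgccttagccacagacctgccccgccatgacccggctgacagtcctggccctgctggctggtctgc
PRG3: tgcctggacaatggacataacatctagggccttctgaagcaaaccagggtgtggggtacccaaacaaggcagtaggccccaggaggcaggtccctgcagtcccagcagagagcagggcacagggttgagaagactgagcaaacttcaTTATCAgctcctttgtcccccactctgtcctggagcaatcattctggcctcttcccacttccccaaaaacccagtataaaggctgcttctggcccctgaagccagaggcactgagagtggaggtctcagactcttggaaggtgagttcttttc
The CTSG window (chr14:24576201-24576500, minus strand) held PU.1 type matches that began 47 and 16 bases before the start site and a MYB type match 1 base before it. The PRTN3 window (chr19:840749-841048, plus strand) held a PU.1 type match 88 bases before the start, a C/EBP type match at 62 bases and a MYB type match at 52 bases. The AZU1 window (chr19:827587-827886, plus strand) held MYB type matches 129 and 49 bases before the start and a C/EBP type match at 111 bases. The RefSeq start of AZU1 lies inside the gene body of the annotation used for coordinates here. The PRG3 window (chr11:57381101-57381400, minus strand) held a single GATA type match 103 bases before the start. Of 34943 promoters of the same length, 13.6% held a PU.1 type match, 10.5% a C/EBP type match, 46.2% a MYB type match and 16.3% a GATA type match. A match describes letters and is not evidence that the factor binds there.

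The expression values are FPKM, fragment numbers divided by transcript length and by library size, which can be compared between genes because of the division by length. The libraries held 15465497 to 18042299 fragments, recovered from the values themselves, and 98.8% of them lay in the listed genes. Over the 15519 genes with a mean of at least 0.5 FPKM, log2 values correlated at 0.983 and 0.979 between the libraries of a line and at 0.946 to 0.956 between lines. The erythroid transcription factor genes GATA1 and KLF1 were present in every library, at 65.9 to 75.4 FPKM and at 45.4 to 64.7 FPKM. Some other erythroid genes were weak, among them SLC4A1 at 0.165 to 0.283 FPKM, named after its value was seen. Differences are log2 fold changes of FPKM + 0.5, TF1-BAR minus TF1-BA, fitted with limma across all tested genes, and the small addition of 0.5 understates the change of weakly expressed genes. A gene was called different when its log2 fold change reached 1 in size, in either direction, with an adjusted p below 0.05. By this rule 737 genes (4.75%) were called, 474 higher (3.05%) and 263 lower (1.69%) in TF1-BAR cells. The share of called genes that were higher was 64.3%, and 51.5% after quantile normalization. The adjusted p alone was under 0.05 for 4167 genes (26.9%), 16.3% higher and 10.5% lower. A comparison of 2 against 2 libraries for a single gene cannot go below an exact permutation p of 0.333, so every test given here shares the estimate of the spread over all genes.

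CTSG, which encodes cathepsin G, rose in the resistant cells, and PRG3, the homologue of eosinophil major basic protein, fell. The other granule transcripts were weak. Of the 10 genes, 5 passed the filter of 0.5 FPKM and were tested (CTSG, PRTN3, AZU1, PRG2 and PRG3), and 5 did not (MPO, ELANE, RNASE2, RNASE3 and CLC). 2 of the 5 tested genes were called, beside 4.75% of all tested genes. At an adjusted p under 0.05 alone, 1 was higher and 3 were lower, beside 16.3% and 10.5% of all tested genes. PRTN3, 1 of the 3, passed the filter only through the line where it was higher (mean 1.08 FPKM in TF1-BA and 0.301 FPKM in TF1-BAR cells), so nothing is read from the counts and the median of the 5. In all 5 the libraries of the 2 lines did not overlap, as for 69.3% of all tested genes; CTSG lay above, as did 40.9% of all, and the other 4 below, as did 28.4%. The median log2 fold change of the 5 was −0.58, beside 0.066 over all genes tested.

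**Figure D1:**
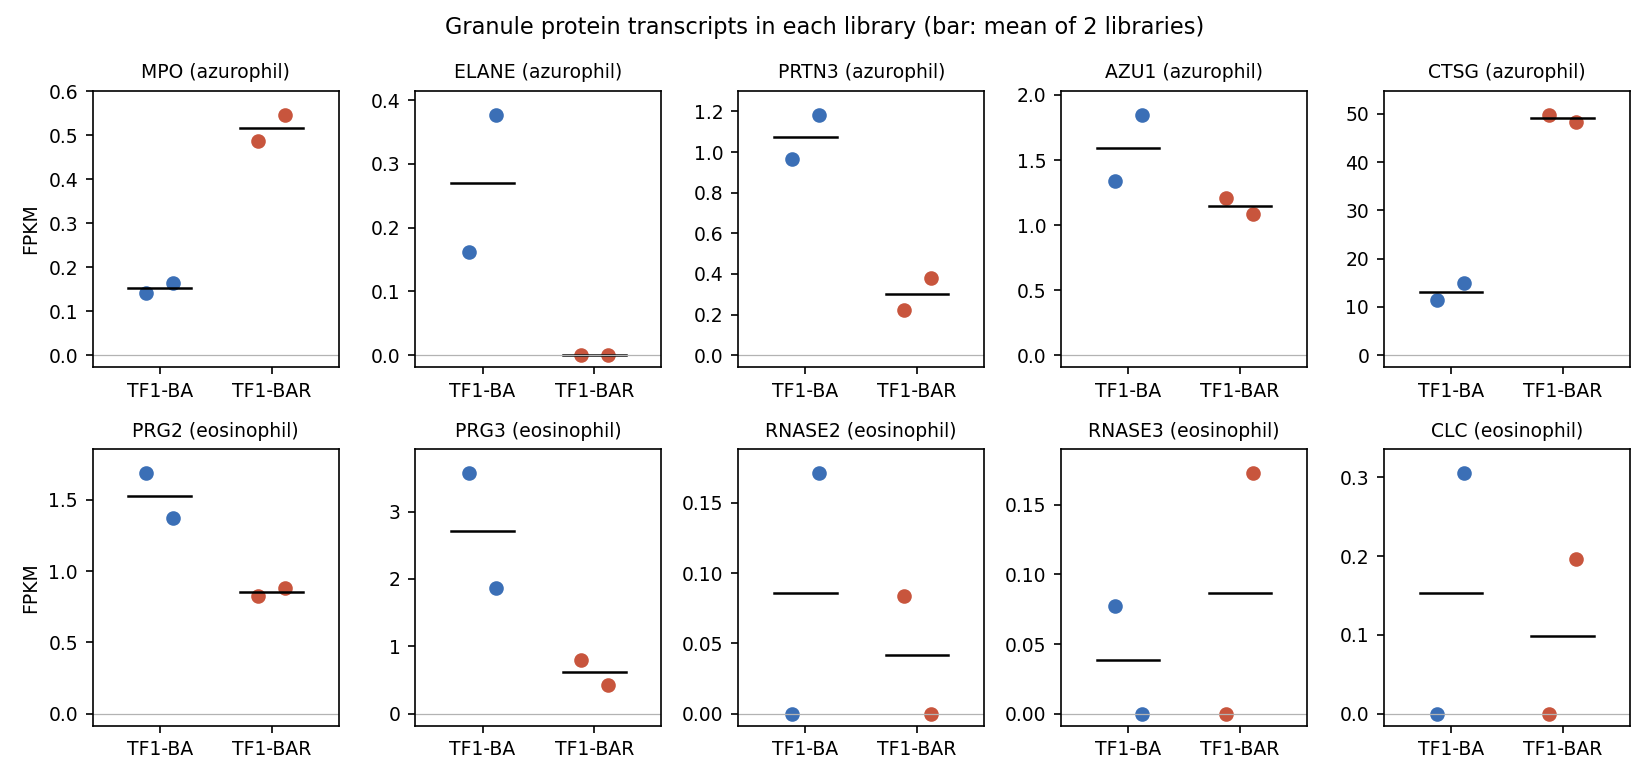
FPKM of the 10 granule genes in each library, 1 panel a gene with its own linear axis; points are libraries of TF1-BA (blue) and TF1-BAR (red) cells and bars are means of 2 libraries. CTSG reached 48.3 to 49.9 FPKM in TF1-BAR cells against 11.3 to 14.9 in TF1-BA cells, and no other granule gene exceeded 3.57 FPKM in any library.

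CTSG (ENSG00000100448, chromosome 14, 24573522 to 24576260, minus strand, in GRCh38 as for all positions given here) was the most abundant of the 10 transcripts in all 4 libraries. Its level was 11.3 and 14.9 FPKM in the TF1-BA libraries and 49.9 and 48.3 FPKM in the TF1-BAR libraries. Both resistant libraries were high and close to each other, and the lines did not overlap. The mean went from 13.1 ± 2.53 (SD, n = 2) to 49.1 ± 1.1 (SD, n = 2) FPKM, a ratio of 3.74. The log2 fold change was 1.88 (SE 0.136, 95% interval 1.53 to 2.23), with an adjusted p of 0.00409 from limma. In these bulk samples a larger share of cells with the transcript and more transcript per cell cannot be told apart. The values rest on 281 and 317 fragments in TF1-BA cells and on 1080 and 1067 in TF1-BAR cells. Over all alternative fits the log2 fold change stayed between 1.69 and 2.07 and the adjusted p under 0.05, in 17 of 17 settings, the one reported included.

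Among the genes above 0 in a library, CTSG ranked above 84.3% and 87.8% in the TF1-BA libraries and above 97.1% and 97.0% in the TF1-BAR libraries. It also dominated the granule genes themselves. CTSG made up 58.8% and 67.2% of the summed FPKM of the 10 genes in TF1-BA cells and 93.2% and 92.9% in TF1-BAR cells. Without it, the other 4 azurophil genes summed to 2.61 and 3.58 FPKM in TF1-BA cells and to 1.92 and 2.01 FPKM in TF1-BAR cells. The azurophil sum with CTSG was 13.9 and 18.5 FPKM against 51.8 and 50.3 FPKM, so the 2 sums differed in direction.

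MPO (ENSG00000005381, chromosome 17, 58269856 to 58280935, minus strand) encodes myeloperoxidase, the haem enzyme that makes hypochlorous acid in the azurophil granule. It was at 0.141 and 0.165 FPKM in TF1-BA cells and at 0.486 and 0.547 FPKM in TF1-BAR cells, below the filter. Both resistant libraries lay above both sensitive ones. The counts behind these levels were 9 and 9 fragments against 27 and 31, a ratio of 3.39 per library fragment with an exact 95% counting interval of 1.97 to 6.12. That interval covers counting error only. Without the filter the log2 fold change was 0.64 (SE 0.117, adjusted p 0.0726), and limma voom on fragment counts, with genes kept from a mean of 10 fragments, gave 1.71 (SE 0.378, adjusted p 0.00472). The second of these settings was chosen after seeing the data. Of these 2 fits, only the count-based one called MPO.

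The 3 azurophil genes of the chromosome 19 cluster were weak, and none of them was higher in the resistant cells. PRTN3 (ENSG00000196415, chromosome 19, 840960 to 848175, plus strand) encodes proteinase 3, a serine protease and the autoantigen of granulomatosis with polyangiitis. It was at 0.967 and 1.18 FPKM in TF1-BA cells and at 0.221 and 0.380 FPKM in TF1-BAR cells. Both resistant libraries were low and the lines did not overlap. PRTN3 passed the filter only through the TF1-BA libraries, where it was higher. Its log2 fold change of −0.98 (SE 0.208, 95% interval −1.52 to −0.44) had an adjusted p of 0.0296 from limma but missed the fold threshold. The counts were 20 and 21 against 4 and 7 fragments, a ratio of 0.282 per library fragment with an exact 95% counting interval of 0.131 to 0.559. The log2 fold change was −1.77 (adjusted p 0.0145) with voom on recovered fragments, and −1.58 with a pseudocount of 0.1 FPKM, and both pass the fold threshold. The adjusted p was 0.0772 without the filter, and it was 0.101, 0.135, 0.0675 and 0.0649 without TF1-BA replicate 1, TF1-BA replicate 2, TF1-BAR replicate 1 and TF1-BAR replicate 2, respectively.

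AZU1 (ENSG00000172232, chromosome 19, 825097 to 832018, plus strand) encodes azurocidin, also called heparin-binding protein, which is bactericidal and draws in monocytes. Its level was 1.34 and 1.85 FPKM in TF1-BA cells and 1.21 and 1.08 FPKM in TF1-BAR cells. The resistant libraries lay below the sensitive ones by a small gap. The log2 fold change was −0.34 (SE 0.171, 95% interval −0.78 to 0.10) with an adjusted p of 0.202, and the adjusted p missed the threshold in all 17 settings. With 43 and 51 fragments against 34 and 31, the ratio was 0.728 per library fragment with a counting interval of 0.522 to 1.01, so no difference was detectable at this depth.

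ELANE (ENSG00000197561, chromosome 19, 851014 to 856247, plus strand) encodes neutrophil elastase, the protease mutated in cyclic and severe congenital neutropenia. It was at 0.162 and 0.377 FPKM in TF1-BA cells, from 3 and 6 fragments, and no fragment was found in either TF1-BAR library. With 3 fragments taken as the limit that a count of 0 allows in each library, ELANE could have been up to 0.185 and 0.182 FPKM in TF1-BAR cells. TF1-BA replicate 1, at 3 fragments, lay within that limit, so no fold is given. Without the filter the log2 fold change depends on the added 0.5 and had an adjusted p of 0.131. All counts of ELANE were too low to say more than that the elastase transcript was near or under the floor in both lines.

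PRSS57 and CFD, further azurophil genes on the same arm of chromosome 19, help to place the cluster. PRSS57 (neutrophil serine protease 4), whose start lies at −129.6 kb from that of AZU1, was at 55.3 and 54.7 FPKM in TF1-BA cells and at 97.8 and 104.6 FPKM in TF1-BAR cells. It was higher in both resistant libraries, with a log2 fold change of 0.87 (SE 0.0620, adjusted p 0.00409), short of the fold threshold. CFD (complement factor D), at 34.5 kb from the same start, was at 12.5 and 15.1 FPKM in TF1-BA cells and at 7.32 and 9.01 FPKM in TF1-BAR cells. It was lower in both resistant libraries, with a log2 fold change of −0.72 (SE 0.139, adjusted p 0.0239). Without TF1-BA replicate 1 or 2 the adjusted p of PRSS57 was 0.0548 or 0.0565, and that of CFD was 0.0605 to 0.134 without any single library. Among 12 other genes within 100 kb of AZU1, PRTN3 or ELANE, 8 were tested and none was called by limma. At an adjusted p under 0.05 alone PALM (0.61) and ARID3A (0.50) were higher on the log2 scale and CFD was lower, and these genes were named after their values were seen. PLPPR3 (0.40, adjusted p 0.101) and PTBP1 (−0.078, adjusted p 0.344), which flank the cluster, did not pass the test, and MED16 behind CFD was at −0.0059 (adjusted p 0.963). The median over 1204 tested genes of chromosome 19 was 0.11.

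**Figure D2:**
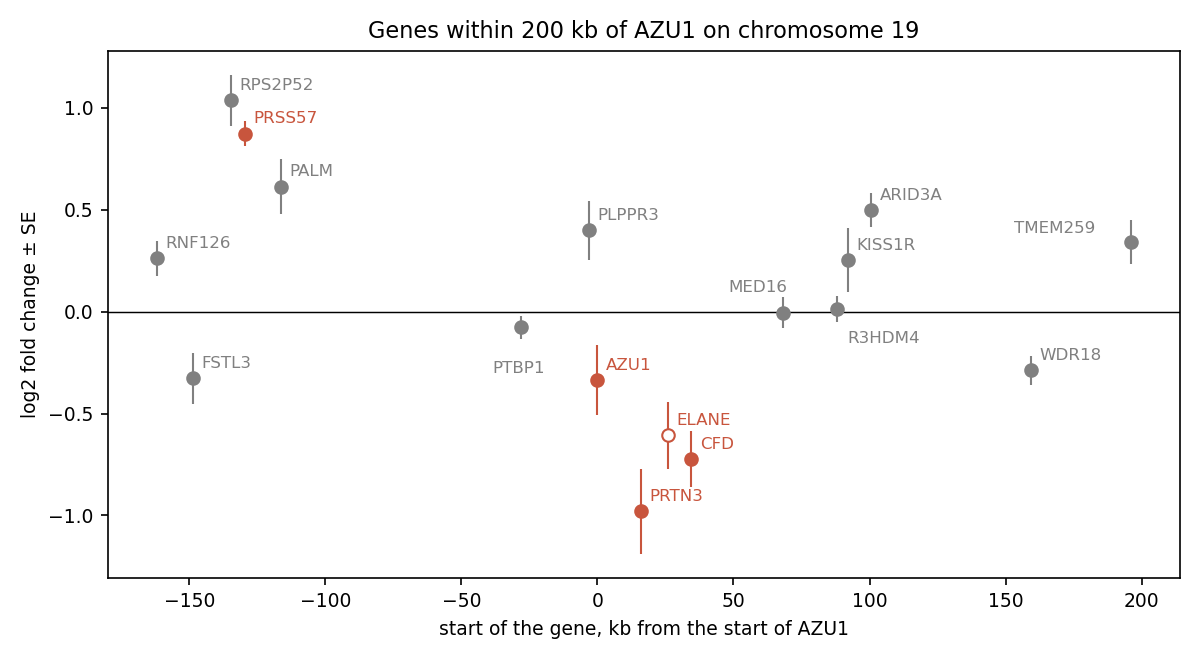
Log2 fold change (TF1-BAR minus TF1-BA, ± SE) of the genes around the azurophil cluster of chromosome 19 against the distance of their start from that of AZU1, in kb. Red marks azurophil granule genes, grey the others, and the open point is ELANE, fitted without the filter. AZU1, PRTN3, ELANE and CFD lie below 0 while PRSS57 lies at 0.87. Grey genes lie on both sides of 0, among them FSTL3 (−0.33), WDR18 (−0.29) and RPS2P52 (1.04, called higher), named after their values were seen.

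The 5 genes beside CTSG on chromosome 14 were not tested because all were below the filter. CMA1, the mast cell chymase, and GZMB and GZMH, the granzymes of cytotoxic lymphocytes, had means of 0 FPKM in TF1-BA cells and of 0.0671, 0.0225 and 0.0327 FPKM in TF1-BAR cells. The levels of these neighbours in the protease cluster were thus far under those of CTSG in the same libraries. AL132800.1, another of the 5 and named after its value was seen, was at a mean of 0.132 FPKM in TF1-BA cells and 0.494 FPKM in TF1-BAR cells, and voom on genes with at least 10 fragments gave it 1.94 on the log2 scale (SE 0.479, adjusted p 0.0084). The median over 575 tested genes of chromosome 14 was 0.036.

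Of the eosinophil genes, PRG2 and PRG3 were detected above the floor and both were lower in the resistant cells. PRG3 (ENSG00000156575, chromosome 11, 57376769 to 57381150, minus strand) was at 3.57 and 1.86 FPKM in TF1-BA cells and at 0.803 and 0.430 FPKM in TF1-BAR cells. The sensitive libraries differed from each other by more than the gap between the lines, which did not overlap. The mean went from 2.72 ± 1.21 (SD, n = 2) to 0.616 ± 0.264 (SD, n = 2) FPKM, and the log2 fold change was −1.49 (SE 0.319, 95% interval −2.32 to −0.67) with an adjusted p of 0.0298 from limma. The counts were 56 and 25 against 11 and 6 fragments, a ratio of 0.221 per library fragment with an exact 95% counting interval of 0.123 to 0.376. The call depended on having all libraries and the filter. The adjusted p was 0.117, 0.0642, 0.066 and 0.135 without TF1-BA replicate 1, TF1-BA replicate 2, TF1-BAR replicate 1 and TF1-BAR replicate 2, respectively, 0.109 without the filter and 0.0501 in a fit whose spread has no trend.

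PRG2 (ENSG00000186652, chromosome 11, 57386794 to 57390657, minus strand) encodes major basic protein, which forms the crystalline core of the eosinophil granule and is toxic to parasites. It was at 1.69 and 1.37 FPKM in TF1-BA cells and at 0.828 and 0.880 FPKM in TF1-BAR cells. The resistant libraries were close to each other and below both sensitive ones. Its log2 fold change of −0.58 (SE 0.152, 95% interval −0.97 to −0.19) had an adjusted p of 0.048, without reaching the fold threshold. It lost the adjusted p when any library was left out (0.115 to 0.218), with the replicate number as a block (0.0699), without the filter (0.126) and after rescaling to TPM (0.0565). The counts were 56 and 39 against 24 and 26 fragments, a ratio of 0.554 per library fragment with a counting interval of 0.385 to 0.788. AP000781.2, which overlaps PRG2 on the same strand, was at a mean of 0.0433 and 0.112 FPKM, so fragments of the shared part could have been split between them. Of 10 other genes within 100 kb of PRG2 or PRG3, 5 were tested and none was called. SLC43A3, 1 gene with an adjusted p under 0.05, was at −0.30 (adjusted p 0.0408) and was named after its value was seen, and the median over 827 tested genes of chromosome 11 was 0.11.

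RNASE2, RNASE3 and CLC were at or under the floor of 3 fragments in every library, so no fold is given for them. RNASE2 (ENSG00000169385, chromosome 14, 20955452 to 20956436, plus strand) encodes eosinophil-derived neurotoxin, an antiviral ribonuclease, and had 0 and 2 fragments in TF1-BA cells and 1 and 0 in TF1-BAR cells. RNASE3 (ENSG00000169397, chromosome 14, 20891399 to 20892348, plus strand) encodes eosinophil cationic protein and had 1 and 0 fragments against 0 and 2. CLC (ENSG00000105205, chromosome 19, 39731250 to 39738028, minus strand) encodes galectin-10, the protein of Charcot-Leyden crystals, and had 0 and 3 fragments against 0 and 2. The lines overlapped for all 3 genes. A count of 3 fragments corresponds to 0.22 to 0.257 FPKM for RNASE2, 0.231 to 0.269 FPKM for RNASE3 and 0.262 to 0.305 FPKM for CLC, depending on the library. RNASE2 and RNASE3 are close paralogues, and 21 stretches of 50 bases (3.1% of each transcript's stretches) are identical between them, while no other pair of the 10 genes shares such a stretch. The study's reads were longer than such a stretch, and whether any was assigned to the wrong gene was not tested.

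The order of the levels, on the FPKM scale, changed between the lines below CTSG. In TF1-BA cells PRG3 followed CTSG, then AZU1 and PRG2, whose libraries overlapped, then PRTN3. In TF1-BAR cells AZU1 followed CTSG, then PRG2, then PRG3 and MPO, whose libraries overlapped, then PRTN3. The eosinophil genes summed to 5.34 and 3.71 FPKM in TF1-BA cells and to 1.72 and 1.68 FPKM in TF1-BAR cells. The number of the 10 genes with more than 3 fragments was 6 and 7 in TF1-BA cells and 6 and 6 in TF1-BAR cells.

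**Figure D3:**
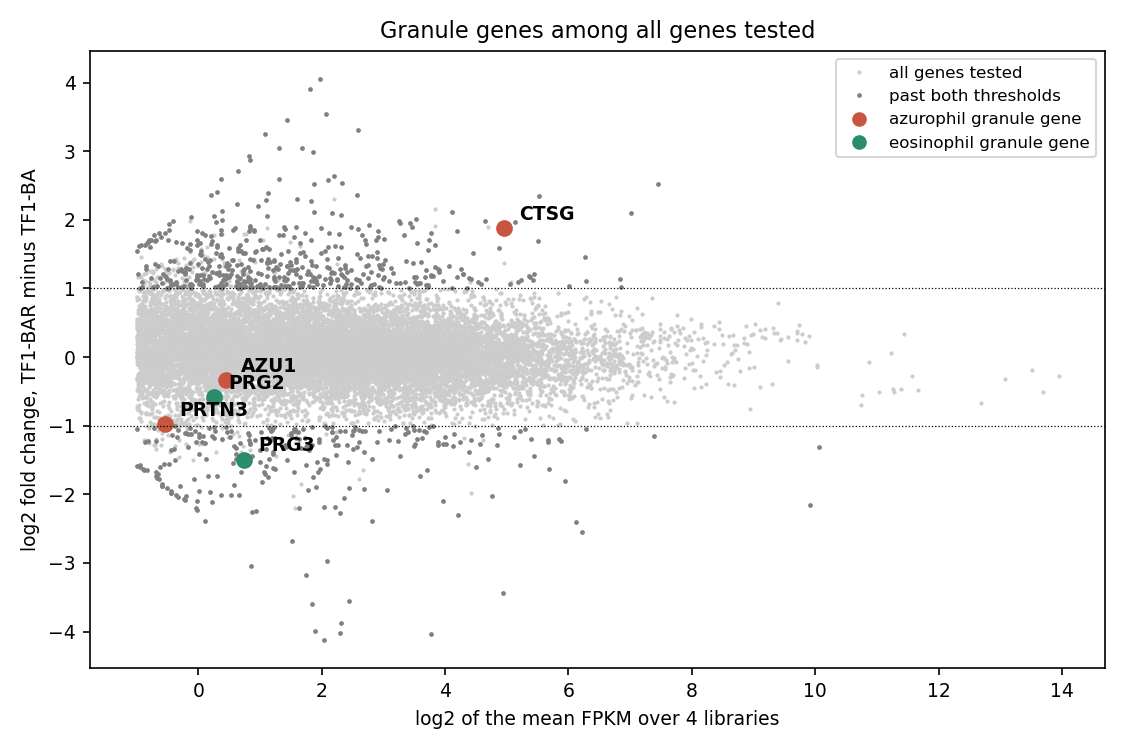
Log2 fold change (TF1-BAR minus TF1-BA) of all 15519 tested genes against the log2 of their mean FPKM over the 4 libraries; dark grey points passed both thresholds and dotted lines mark −1 and 1. CTSG lies at 1.88 among the more abundant genes, and PRTN3 (−0.98), AZU1 (−0.34), PRG2 (−0.58) and PRG3 (−1.49) lie among the weakly expressed ones.

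Genes whose pattern over the 4 libraries was most like that of CTSG were found by the distance between centred log2 values. The nearest were CYYR1 (distance 0.117), ARFGEF3 (0.155), TPSP2, a tryptase pseudogene (0.163), and the noncoding genes AL365356.5 (0.184) and AL512643.1 (0.214). All but CYYR1 passed the filter only through TF1-BAR cells, where they were higher. The log2 fold changes were 1.80 for CYYR1, 1.91 for ARFGEF3, 1.80 for TPSP2, 1.78 for AL365356.5 and 1.69 for AL512643.1. CYYR1 went from 1.66 ± 0.284 to 7.01 ± 0.0795 FPKM (SD, n = 2). With 4 libraries in 2 groups the measure mostly reflects the size of the difference between the lines.

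The remaining genes of granule biology were described by lists, of which some members are not analysed here. Of 7 further azurophil genes in the table, 6 were tested and none was called. At an adjusted p under 0.05 alone PRSS57 was higher and CFD and GUSB (−0.54, adjusted p 0.0123, named after its value was seen) were lower, beside 16.3% higher and 10.5% lower over all tested genes, and the median log2 fold change was −0.028. LYZ, the lysozyme gene, was at 15.1 and 13.6 FPKM in TF1-BA cells and at 16.5 and 15.7 FPKM in TF1-BAR cells (adjusted p 0.209). BPI, which encodes a protein that binds bacterial endotoxin, was at 0.0226 FPKM or less. The weak or missing transcripts of the azurophil granule therefore included BPI as well as ELANE, while PRSS57 and CTSG were abundant in the resistant cells.

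Among the genes that process, pack and inhibit granule proteins, 18 were in the table and 15 were tested. 3 of the 15 were called, 1 higher and 2 lower, beside 3.05% and 1.69% of all tested genes, and 4 were higher and 4 lower at an adjusted p under 0.05 alone, beside 16.3% and 10.5%. SLPI, the secretory inhibitor of elastase and cathepsin G, was at 0.837 and 0.976 FPKM in TF1-BA cells and at 7.35 and 9.29 FPKM in TF1-BAR cells. It rose by 2.64 on the log2 scale (SE 0.142, adjusted p 0.00289), and both resistant libraries were far above both sensitive ones. SERPINB9, the intracellular inhibitor of granzyme B, was at 7.07 and 7.03 FPKM in TF1-BA cells and at 0.139 and 0.106 FPKM in TF1-BAR cells. It fell by 3.60 on the log2 scale (SE 0.115, adjusted p 0.00108), and it passed the filter only through TF1-BA cells. RAB27A, a small GTPase of granule secretion, was at 27.0 and 26.4 FPKM against 11.2 and 10.9 FPKM and fell by 1.23 on the log2 scale (SE 0.0652, adjusted p 0.00282). SLPI and SERPINB9 kept an adjusted p under 0.05 without any single library, and RAB27A had 0.0527 without TF1-BA replicate 2.

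SRGN, the proteoglycan serglycin on which granule proteases are packed, was at 126.6 and 132.2 FPKM in TF1-BA cells and at 68.1 and 72.4 FPKM in TF1-BAR cells. Its log2 fold change was −0.88 (SE 0.0627, adjusted p 0.00409), short of the fold threshold, and the adjusted p was 0.0528 and 0.0574 without TF1-BA replicate 1 and 2. RNH1, the cytosolic inhibitor of RNASE2 and RNASE3, was at 11.3 and 12.3 FPKM against 6.96 and 7.61 FPKM, with a log2 fold change of −0.66 (SE 0.0865, adjusted p 0.0106). Without TF1-BA replicate 1 or 2 its adjusted p was 0.0781 or 0.0965. Both were lower in each resistant library. CTSC, the peptidase that activates the granule proteases, did not pass the test, at 18.0 and 16.3 FPKM against 16.9 and 17.6 FPKM, with a 95% interval of −0.19 to 0.22 for its log2 fold change (adjusted p 0.90). SERPINB1, the cytosolic inhibitor of elastase, proteinase 3 and cathepsin G, did not pass it either, at 118.8 and 112.2 FPKM against 115.6 and 107.2 FPKM, with an interval of −0.23 to 0.12 (adjusted p 0.598). The lines overlapped for both genes. The signs of these last 2 small differences turned under some settings.

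**Figure D4:**
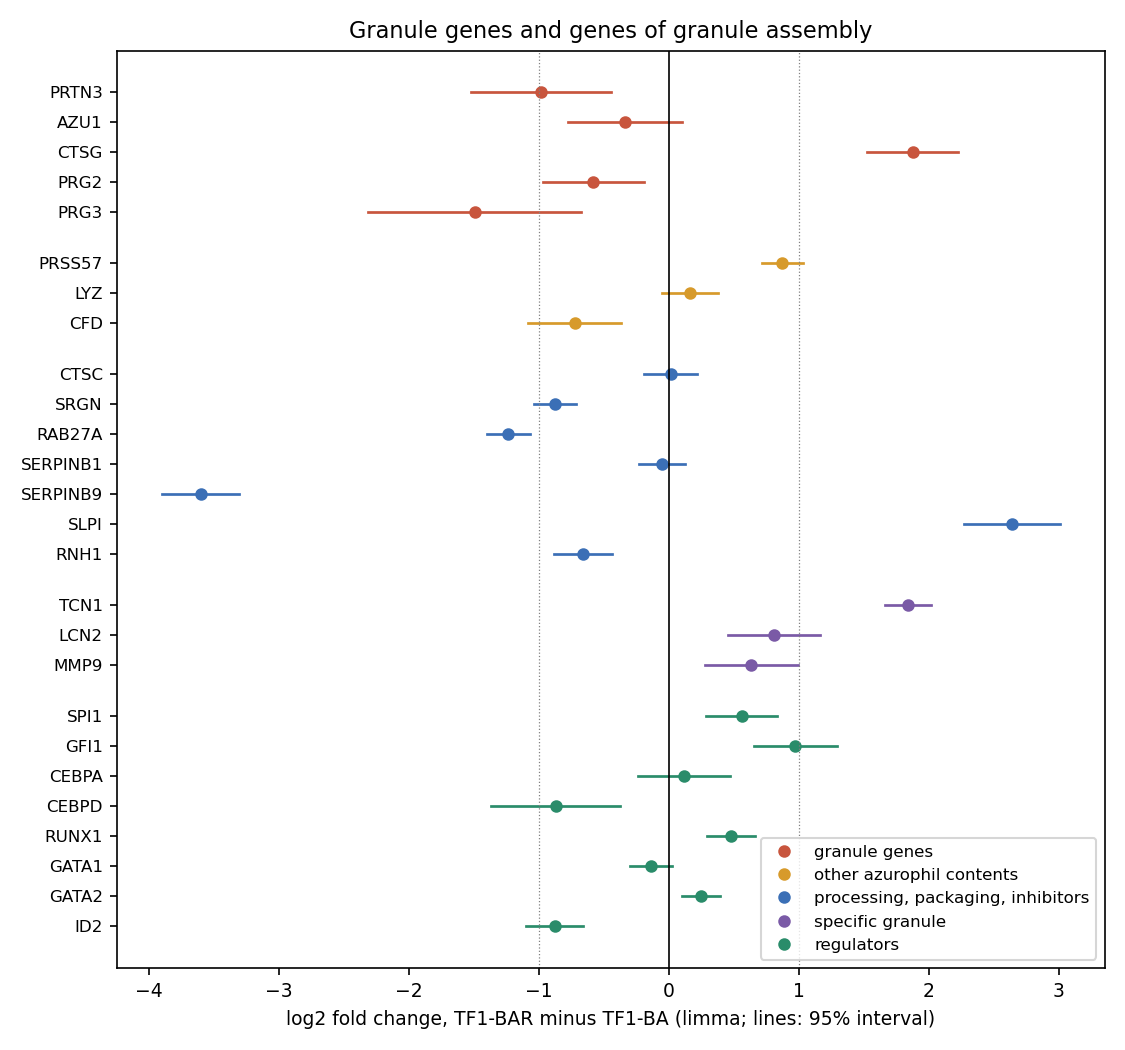
Log2 fold change (TF1-BAR minus TF1-BA) with 95% intervals from limma for the 5 tested granule genes and for genes of granule content, processing, packing and inhibition, specific granules and transcription; dotted lines mark −1 and 1. Among the genes drawn, CTSG, SLPI and TCN1 lie above 1 and PRG3, SERPINB9 and RAB27A below −1.

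Contents of the specific and gelatinase granules, which form later than azurophil granules, were represented by 14 genes in the table, of which 8 were tested. TCN1, the vitamin B12 binder haptocorrin, was the single called gene, at 7.83 and 7.66 FPKM in TF1-BA cells and at 29.8 and 28.3 FPKM in TF1-BAR cells. It rose by 1.84 on the log2 scale (SE 0.0687, adjusted p 0.00145), a size near that of CTSG, and kept the call without any single library. At an adjusted p under 0.05 alone LCN2 (0.81) and MMP9 (0.63) were also higher on the log2 scale, and both were named after their values were seen. These 3 of 8 stand beside 16.3% of all tested genes. The median log2 fold change of the 8 was 0.52, beside 0.066 over all genes. Lactoferrin (LTF), a defining protein of the specific granule, was at 0.0732 FPKM or less, and HP was at 0 in all libraries.

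Most further eosinophil genes were below the filter. Of 9 genes in the table only 2 were tested, the receptor genes IL5RA and SIGLEC8, and none was called. IL5RA, for the interleukin 5 receptor, was at 3.75 and 3.11 FPKM against 2.11 and 2.46 FPKM (log2 fold change −0.50, adjusted p 0.0501), and SIGLEC8 was at 0.961 and 1.06 FPKM against 1.62 and 1.63 FPKM (0.49, adjusted p 0.0486). The 2 receptor genes were named after their values were seen, and they differed in direction. EPX, the eosinophil peroxidase that defines the lineage together with PRG2, was at 0.205 and 0.167 FPKM in TF1-BA cells and at 0.234 and 0.207 FPKM in TF1-BAR cells, below the filter, and its lines did not overlap by a narrow gap.

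Of 19 transcription factor genes in the table that are known to act on granule genes, 18 were tested and none was called by limma on log2 FPKM, while 5 were higher and 3 lower at an adjusted p under 0.05 alone, beside 16.3% and 10.5% of all tested genes. The median of the 18 was 0.12. GFI1, a repressor needed for neutrophil formation, was at 9.84 and 10.1 FPKM in TF1-BA cells and at 17.8 and 22.6 FPKM in TF1-BAR cells, with a log2 fold change of 0.97 (SE 0.125, adjusted p 0.0102). SPI1, which encodes PU.1, was at 30.2 and 32.4 FPKM against 42.3 and 50.8 FPKM, with a log2 fold change of 0.56 (SE 0.105, adjusted p 0.0226). Both were higher in each resistant library and short of the fold threshold. GFI1 passed that threshold after rescaling to TPM (1.04, adjusted p 0.00867) and by voom on recovered fragments (1.01, adjusted p 4.01e-05). When 1 library was left out, the log2 fold change of GFI1 was 0.807 to 1.14. The adjusted p of GFI1 was 0.0807 and 0.0783 without TF1-BA replicate 1 and 2, and that of SPI1 was 0.139, 0.11 and 0.0604 without TF1-BA replicate 1, TF1-BA replicate 2 and TF1-BAR replicate 2. GATA2, a factor of progenitors, mast cells and basophils, was at 204.0 and 194.7 FPKM against 233.1 and 241.5 FPKM, with a log2 fold change of 0.25 (SE 0.0567, adjusted p 0.0339), and it lost the test when any library was left out (0.0538 to 0.253). The others that passed were RUNX1 (0.48) and RARA (0.49), which were higher, and ID1 (−0.57), ID2 (−0.88) and CEBPD (−0.87), which were lower on the log2 scale, and these 5 were named after their values were seen. CEBPD was called by voom on genes with at least 10 fragments (−1.16, adjusted p 0.0056).

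CEBPA, the C/EBP factor of early granulocytes, was at 1.16 and 1.06 FPKM in TF1-BA cells and at 1.21 and 1.28 FPKM in TF1-BAR cells (adjusted p 0.559, 95% interval −0.24 to 0.47). CEBPE, which drives specific and eosinophil granule genes, stayed under the filter, at 0.285 and 0.208 FPKM against 0.490 and 0.320 FPKM. GATA1 was at 75.4 and 74.7 FPKM against 65.9 and 70.6 FPKM (log2 fold change −0.14, adjusted p 0.164). CEBPA and GATA1 did not pass the test and CEBPE was not tested, and the libraries of the 2 lines did not overlap in any of the 3, as in 69.3% of all tested genes.

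Markers of other blood cells moved between the lines as well, and their part in the difference of CTSG or PRG3 was not tested. Of 8 mast cell and basophil genes, all were tested and 6 were called, 5 higher and 1 lower, beside 3.05% and 1.69% of all tested genes, and their summed level was 98.2 to 104.5 FPKM in TF1-BA cells and 191.4 to 195.6 FPKM in TF1-BAR cells. HDC (1.21), CPA3 (1.66), MS4A2 (1.08), FCER1A (1.18) and KIT (1.12) rose and ENPP3 (−1.29) fell on the log2 scale. CPA3, a protease of mast cell granules, was at 0.180 and 0.105 FPKM in TF1-BA cells and at 1.44 and 1.62 FPKM in TF1-BAR cells, so it passed the filter only through TF1-BAR cells. The tryptase genes TPSAB1 (−0.38, adjusted p 0.0952) and TPSB2 (−0.74, adjusted p 0.0071), which are also mast cell granule proteases, were lower in each resistant library and did not reach the fold threshold, and they were named after their values were seen. Without TF1-BA replicate 2 none of the 6 called genes kept an adjusted p under 0.05 (0.0527 to 0.0896). Without TF1-BA replicate 1 HDC (0.0521), CPA3 (0.0528), ENPP3 (0.0613) and MS4A2 (0.102) lost it, and without TF1-BAR replicate 2 CPA3 lost it (0.0507).

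Of 5 monocyte genes listed, 2 were tested, and CSF1R, the M-CSF receptor, was called higher (1.25, adjusted p 0.0124). CSF1R (mean 0.271 FPKM in TF1-BA and 1.33 FPKM in TF1-BAR cells), GYPB (0.236 and 1.81 FPKM) and HBZ (1.49 and 0.291 FPKM) passed the filter only through the line where each was higher. The list summed to 1.56 to 1.93 FPKM in TF1-BA cells and to 4.48 to 4.86 FPKM in TF1-BAR cells, and the defining markers CD14 and S100A9 were at 0 in both TF1-BA libraries and at 0.108 FPKM or less in TF1-BAR cells. Among the erythroid genes tested, GYPB (1.66) and AHSP (1.25) rose and HBA1 (−2.29), HBA2 (−3.43) and HBZ (−1.31) fell, and the list summed to 197.1 to 200.9 FPKM against 101.9 to 109.7 FPKM. The reads of HBA1 and HBA2, which are nearly identical, can be assigned to either gene. Of 3 megakaryocyte genes tested GP1BA was called (1.27, adjusted p 0.00409), and the list summed to 135.7 to 144.9 FPKM against 188.6 to 210.9 FPKM. Of 3 lymphoid genes tested CD3D was called (−1.64, adjusted p 0.00282), and CD79A, named after its value was seen, went the other way (0.61, adjusted p 0.026) short of the fold threshold. The lymphoid list summed to 22.3 to 24.2 FPKM against 10.2 to 10.5 FPKM, of which CD3D alone made up 19.2 and 20.7 FPKM in TF1-BA cells and 5.74 and 6.36 FPKM in TF1-BAR cells, and CD3E was at 0.0227 FPKM or less. The calls of these 4 lists stand beside 3.05% higher and 1.69% lower over all tested genes. When 1 library was left out, HBA1 and HBA2 kept an adjusted p under 0.05 each time. CSF1R, GYPB, AHSP, HBZ, GP1BA and CD3D lost it for at least 1 library, with highest values of 0.0721, 0.0589, 0.0721, 0.0922, 0.0527 and 0.0517, respectively, all reached without TF1-BA replicate 1 or 2.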

How the data were processed

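The authors extracted RNA from cells of both lines and sequenced the libraries as paired ends. The authors mapped the reads with TopHat and deposited FPKM values, without log transformation, for each gene and library. The submitters' processing notes name TopHat2 2.0.13, Cufflinks 2.2.0, Cuffdiff 2.2.0 and GRCh38. Which annotation release they used is not given in the sources used here. Groups and replicate numbers came from the sample labels. 26 symbols held as dates were replaced by those of their gene identifiers.

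The fragments behind the FPKM were recovered as the whole numbers that fit a gene in all 4 libraries. Of 30853 genes above 0, 14114 gave whole numbers with their GENCODE 44 exon length and 16739 with a length that was fitted. Of 300 genes drawn from those 14114, 0 gave whole numbers at wrong library sizes. The genes with a fitted length were not checked in this way. Fragment counts were used for floors, counting intervals (exact, 95%, counting error only) and the voom alternatives. Gene positions are those deposited with the expression values, and promoters are RefSeq windows.

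The lines were compared by limma 3.58.1 under R 4.3.3 (lmFit, then eBayes with a trend) on log2(FPKM + 0.5) over 15519 genes with a mean of at least 0.5 FPKM, with Benjamini-Hochberg adjustment. Scripts were tested on simulated data with known changes. Other calculations used Python 3.11.15. The alternatives were other pseudocounts (1 and 0.1), filters, scalings and spread models, the replicate number as a block, voom on fragments, the adjusted p alone and leaving out each library; voom with a minimum mean of 10 fragments was added after seeing the data.

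The 10 genes and all gene lists were chosen with earlier results of these data known. Named were the 10 genes, the called genes of each list (at most 6), a fixed set of regulators, processing genes and granule proteins (CEBPA, CEBPE, SPI1, GFI1, GATA1, GATA2, CTSC, SRGN, SERPINB1, RNH1, EPX, PRSS57, CFD and LYZ), the 5 genes most like CTSG, and at most 4 neighbours for each locus. Other names are marked where they stand. Some members of the lists are not reported here.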

Additional observations from a re-analysis of the deposited data

How the results depend on the processing

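CTSG was called in every setting run. The number of granule genes called, 2 with all libraries, was 1 without the filter, 1 without the trend, 4 by the adjusted p alone, 4 by voom on genes with at least 10 fragments and 1 without any single library (1 to 1). The number higher was 2 by that voom fit. The number lower, 1 with all libraries, was 2 with a pseudocount of 0.1 FPKM, 2 after quantile normalization, 2 by voom on either gene set, 3 by the adjusted p alone, and 0 without the filter, without the trend and without any single library (0 to 0). In the fit that blocked on replicate number the count remained 2, and over all genes it was 755 beside 737. Whether same-numbered libraries shared a batch is not stated, and their deviations correlated at 0.0646 over 15519 genes. In that fit PRG2 lost its adjusted p (0.0699). The 5 lists of granule biology (further azurophil genes, processing and inhibition, specific granules, further eosinophil genes and transcription factors) held 49 tested genes together. Of these, 4 were called (8.16%), and 23 by the adjusted p alone (46.9%), beside 4.75% and 26.9% of all tested genes. SERPINB9, 1 of the 4, passed the filter only through TF1-BA cells, and the lists were chosen with earlier results known. Nothing is therefore read from these shares. All genes called numbered 487 with a pseudocount of 1 FPKM, 1152 by voom, 1594 by voom on genes with at least 10 fragments, 4167 by the adjusted p alone, and 42 to 783 without 1 library, lowest without TF1-BA replicate 2 (42), then without TF1-BA replicate 1 (144) and without TF1-BAR replicate 2 (427).

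Small differences turned in sign for CEBPA after quantile normalization (−0.0168), for CTSC after upper-quartile scaling (−0.0107), quantile normalization (−0.00495) and without TF1-BA replicate 2 (−0.0547) or TF1-BAR replicate 2 (−0.0123), and for SERPINB1 after rescaling to TPM (0.0161) or without TF1-BAR replicate 2 (0.00229). Without 1 library CTSC ranged from −0.0547 to 0.0852 and SERPINB1 from −0.106 to 0.00229. None of these passed the test. With a minimum of 1 FPKM PRTN3 was not tested. Where a library was left out, the lone library of its line was assumed to vary like the others, and fewer samples remained. The causes of the other changes were not tested. RNASE2, RNASE3 and CLC had 3 fragments or fewer in every library and ELANE at most 6, too few at this depth to compare the lines closely.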

Other observations

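Of 11 genes within 100 kb of MPO, 5 were tested and 2 were called, beside 4.75% of all tested genes. AC004687.1 was called higher (4.22 to 12.1 FPKM, log2 fold change 1.42, adjusted p 0.00581 from limma), SUPT4H1 was at 0.64 (adjusted p 0.0226, named after its value was seen) and MKS1 at 0.12 (adjusted p 0.317). TSPOAP1 and RNF43, also named after their values were seen, were below the filter, and voom on genes with at least 10 fragments gave them 1.15 (adjusted p 0.002) and 1.47 (adjusted p 0.003). MIR4736 passed the filter through TF1-BA cells with 1 and 2 fragments against 0 and 0, so no fold is given for it although the fit called it lower. Around RNASE2 and RNASE3, 14 genes lie within 100 kb and 3 were tested, none called. RNASE1, the pancreatic type ribonuclease of the same family, was at a mean of 6.31 FPKM in TF1-BA cells and 10.4 FPKM in TF1-BAR cells (log2 fold change 0.68, SE 0.106, adjusted p 0.0148), and was named after its value was seen. Of 5 genes within 100 kb of CLC, only FBL was tested (−0.097, adjusted p 0.392).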
